A study of Homo sapiens with 16 samples.

Results

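The genes described are TGFB1 and TGFB2, which encode transforming growth factor beta (TGF-beta) ligands, TGFBR2, which encodes the type II TGF-beta receptor, and TGFBI and SPARC, which encode secreted matrix proteins of the TGF-beta response. Listed regions bound by AIB1, called clusters here, were taken where their nearest edge lay within 200 kb of the canonical transcription start site (TSS) of one of these 5 genes. This gave 11 of the 897 different clusters in the series. The genes were selected on the presence, distance and within-list rank of these same clusters, so the counts of clusters near the 5 genes are a description and no test was made on them.

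AIB1, encoded by NCOA3, is a nuclear receptor coactivator, and AIB1-D4 is a splice isoform that lacks the N-terminal part of the protein. Chromatin immunoprecipitation sequencing with an AIB1 antibody was done in MCFDCIS-D4 and MCFDCIS cells and in MCF10A-D4 and MCF10A cells. MCF10A is a non-tumorigenic human mammary epithelial line, and MCFDCIS is a line related to it that models ductal carcinoma in situ. The cell type field of the labels uses the carcinoma term for both lines. All groups shared a growth medium with horse serum, insulin, cholera toxin, EGF and the glucocorticoid hydrocortisone. The sources used here do not say how the D4 lines were made or whether each is a single clone. The labels list 16 samples, with 3 ChIP samples and 1 input in each of the 4 groups, and 1 deposited list of clusters per group was used. The lists hold no value per replicate, so no replicate error can be given here, and the lists do not give the read depth.

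The sample descriptions and the names of the lists give opposite cell lines, whereas D4 or parental status is the same in both. The lists are therefore called MCFDCIS-named and MCF10A-named, and a difference between them has no known direction between the lines. The lists held 99 clusters (MCFDCIS-named D4), 651 (MCFDCIS-named parental), 138 (MCF10A-named D4) and 490 (MCF10A-named parental). Of 6 genes of basal mammary epithelium, 0 and 5 had a cluster within 200 kb in the MCFDCIS-named D4 and parental lists, and 1 and 4 in the MCF10A-named ones. Of 4 luminal genes, 0 and 1 did under both line names, and of 4 fibroblast genes 1 and 2 did in the MCFDCIS-named and 0 and 1 in the MCF10A-named D4 and parental lists. Of all protein-coding genes, 2.52% and 10.7% did in the MCFDCIS-named and 1.92% and 7.45% in the MCF10A-named D4 and parental lists. Binding near a gene does not show that the gene is expressed.

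TGF-beta ligands are secreted in a latent form bound to the matrix and, once released, bind the type II receptor, which recruits and phosphorylates the type I receptor. The receptors activate SMAD transcription factors, which act with partners such as AP-1 on target genes. In mammary epithelium the pathway restrains proliferation in normal cells and is known for promoting invasion and mesenchymal features in carcinoma cells.

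The sequences of 7 clusters are shown because the results turn on them: the 2 that were listed in D4 cells, the 3 that were listed in both parental lists, the cluster inside TGFBI, and the SPARC cluster with an AP-1 match nearest its centre among those of its gene. Each is the GRCh37 forward strand about the cluster's centre, 300 bases for the clusters listed in D4 cells and 200 bases for the others. Capitals mark matches to the motifs named in the sentence after the sequences.
TGFBR2 cluster 9.08 kb upstream, chr3:30638806-30639105, + strand: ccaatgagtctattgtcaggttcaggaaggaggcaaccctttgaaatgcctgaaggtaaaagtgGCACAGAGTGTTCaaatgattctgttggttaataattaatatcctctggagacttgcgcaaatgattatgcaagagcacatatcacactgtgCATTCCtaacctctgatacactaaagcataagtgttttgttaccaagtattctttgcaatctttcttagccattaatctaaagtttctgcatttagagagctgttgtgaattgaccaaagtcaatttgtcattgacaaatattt
TGFB2 cluster 151 kb downstream, chr1:218670056-218670355, + strand: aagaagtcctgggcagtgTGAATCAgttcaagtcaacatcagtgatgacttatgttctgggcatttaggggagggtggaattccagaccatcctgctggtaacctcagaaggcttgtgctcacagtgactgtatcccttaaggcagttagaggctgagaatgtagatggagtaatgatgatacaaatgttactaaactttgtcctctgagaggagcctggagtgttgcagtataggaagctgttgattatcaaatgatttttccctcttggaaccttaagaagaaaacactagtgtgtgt
TGFBR2 cluster 114 kb upstream, chr3:30534406-30534605, + strand: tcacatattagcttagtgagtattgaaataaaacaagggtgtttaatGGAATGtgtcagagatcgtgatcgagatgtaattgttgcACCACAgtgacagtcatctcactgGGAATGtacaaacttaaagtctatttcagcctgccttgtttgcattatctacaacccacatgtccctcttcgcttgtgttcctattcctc
TGFB1 cluster 128 kb downstream, chr19:41732006-41732205, + strand: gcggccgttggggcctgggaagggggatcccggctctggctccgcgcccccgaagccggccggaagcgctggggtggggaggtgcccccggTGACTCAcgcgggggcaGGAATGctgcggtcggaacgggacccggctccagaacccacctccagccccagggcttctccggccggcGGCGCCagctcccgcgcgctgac
SPARC cluster 71.4 kb downstream, chr5:150994981-150995180, + strand: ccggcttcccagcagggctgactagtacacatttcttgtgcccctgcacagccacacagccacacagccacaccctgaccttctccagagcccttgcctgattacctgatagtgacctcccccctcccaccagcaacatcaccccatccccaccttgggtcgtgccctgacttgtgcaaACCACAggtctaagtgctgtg
SPARC cluster 96.9 kb downstream, chr5:150969506-150969705, + strand: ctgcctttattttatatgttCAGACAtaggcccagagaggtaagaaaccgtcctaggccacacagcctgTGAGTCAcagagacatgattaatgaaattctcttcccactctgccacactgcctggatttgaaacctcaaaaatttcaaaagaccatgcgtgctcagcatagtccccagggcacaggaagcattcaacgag
TGFBI cluster 5.02 kb downstream, chr5:135369606-135369805, + strand: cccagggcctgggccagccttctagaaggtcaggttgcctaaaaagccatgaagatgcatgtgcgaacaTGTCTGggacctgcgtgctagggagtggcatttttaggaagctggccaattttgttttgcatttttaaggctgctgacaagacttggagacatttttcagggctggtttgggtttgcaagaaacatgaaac
In order along each line the capitals are, for the first, a glucocorticoid response element (GRE) and a TEAD match; for the second, an AP-1 match; for the third, TEAD, RUNX and TEAD matches; for the fourth, AP-1, TEAD and GC-rich SMAD matches; for the fifth, a RUNX match; for the sixth, a SMAD box and an AP-1 match; and for the seventh, a SMAD box.

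Under the MCFDCIS name the clusters near the 5 genes were all parental, and under the MCF10A name some were D4 and others parental. The MCFDCIS-named D4 list held 0 of the 11 clusters and the MCFDCIS-named parental list held 11. The MCF10A-named D4 list held 2 and the MCF10A-named parental list 3. In genes, 0 of 5 had a cluster in the MCFDCIS-named D4 list, where 2.52% of 18604 protein-coding genes did, and 5 of 5 in its parental list, where 10.7% did. In the MCF10A-named lists 2 of 5 genes had a D4 cluster, against 1.92% of protein-coding genes, and 3 of 5 a parental one, against 7.45%. A gene with a parental cluster and no D4 cluster within 200 kb was seen for 5 of 5 in the MCFDCIS-named pair, beside 8.41% of all protein-coding genes, and for TGFB1 and SPARC in the MCF10A-named pair, beside 6.15%. The reverse was seen for 0 of 5 in the MCFDCIS-named pair, beside 0.247%, and for TGFB2 in the MCF10A-named pair, beside 0.624%. TGFB1, TGFBR2 and SPARC had a cluster in both parental lists, as 6.90% of protein-coding genes did. A list holds only regions above the authors' threshold, which is not given, so a missing cluster does not show that AIB1 was absent.

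**Figure D1:**
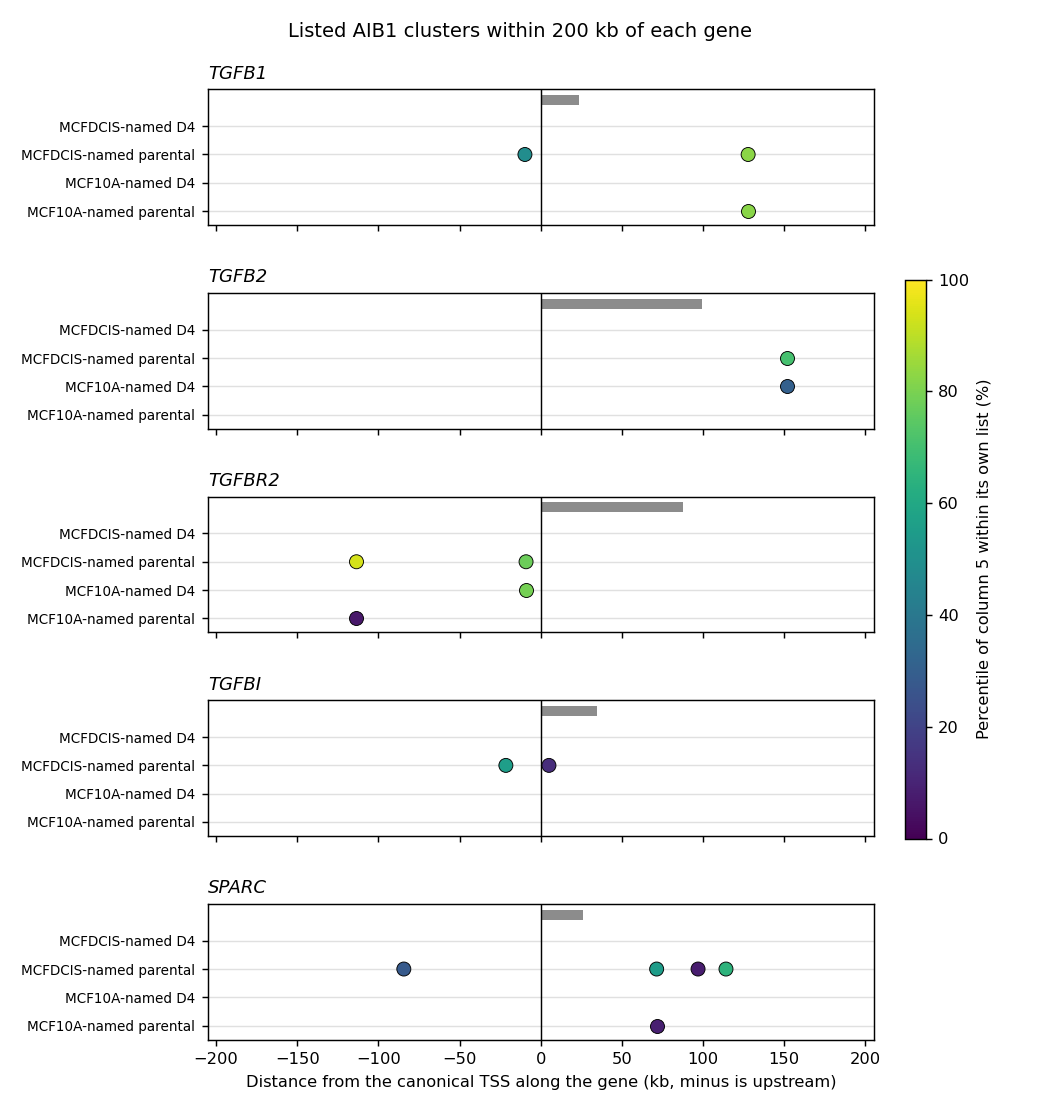
Position of each listed cluster relative to the TSS of the 5 genes, in kb along the direction of transcription (minus is upstream), with 1 row per list. The grey bar is the gene and the colour is the percentile of the authors' score within the list. The 11 MCFDCIS-named parental clusters include every position seen in the other lists, and the MCFDCIS-named D4 rows are empty.

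Both clusters of the MCF10A-named D4 list were absent from the parental list of the same name and present in the MCFDCIS-named parental list. They were the TGFBR2 cluster at 9.08 kb and the TGFB2 cluster at 151 kb. Of the 138 MCF10A-named D4 clusters, 35 (25.4%) had this combination, while 67 (48.6%) were in the parental list of the same name. Over all 897 clusters, 34 (3.79%) were in these 2 lists and in neither other. D4 and parental status thus went opposite ways between the line names at these 2 clusters, a difference that could not be tested with 1 list per group.

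Set against the MCFDCIS-named parental list, 0 of its 11 clusters near the 5 genes were in the D4 list of that name, where 9.98% of the 651 were, and 2 of 11 were in the MCF10A-named D4 list, where 8.45% were. In the other parental list were 3 of the 11, where 47.2% of the 651 were, and conversely 3 of 3 MCF10A-named parental clusters were in the MCFDCIS-named one, where 62.7% of the 490 were.

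TGFB1, on chromosome 19, encodes the most widely expressed ligand of the family. It had 0 clusters within 200 kb in both D4 lists and 2 and 1 in the MCFDCIS-named and MCF10A-named parental lists. The cluster shared by both parental lists, chr19:41732101-41732110, lay 128 kb downstream of the TSS, in intron 4 of AXL, a receptor tyrosine kinase gene whose own TSS was nearer, at 6.97 kb. It ranked 113 of 651 by the authors' score in the MCFDCIS-named and 89 of 490 in the MCF10A-named parental list. These ranks put it at percentiles of 82.8 and 82.0, where the percentile is the share of clusters in the list with an equal or lower score.

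The second TGFB1 cluster, chr19:41869601-41869610, was 9.77 kb upstream and was in the MCFDCIS-named parental list alone, at rank 335 of 651. It lay in intron 1 of B9D2, a gene for a protein of the primary cilium, and 0.444 kb from the B9D2 TSS. TGFB1 was thus the nearest gene of neither of its clusters. The position is gene-dense, with 13 protein-coding TSSs within 200 kb of the B9D2 cluster and 12 within 200 kb of the AXL cluster.

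TGFB2, on chromosome 1, encodes a second ligand. It had 0 and 1 clusters in the MCFDCIS-named D4 and parental lists and 1 and 0 in the MCF10A-named D4 and parental lists, and all of these were the same cluster. This cluster, chr1:218670151-218670260, was 110 bp wide and intergenic, 52.2 kb past the end of TGFB2, and TGFB2 was the only protein-coding gene with a TSS within 200 kb. It ranked 97 of 138 in the MCF10A-named D4 list and 194 of 651 in the MCFDCIS-named parental list, at percentiles of 30.4 and 70.4. Of protein-coding genes, 0.624% had a cluster within 200 kb in that D4 list and none in its parental list, as TGFB2 did. A further cluster 361 kb downstream, outside the window, was in both parental lists, at rank 92 of 651 and 163 of 490.

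TGFBR2, on chromosome 3, encodes the receptor that binds the ligand first. It had 0 and 2 clusters in the MCFDCIS-named D4 and parental lists and 1 and 1 in the MCF10A-named D4 and parental lists. Both clusters were intergenic, upstream, 110 bp wide, and had TGFBR2 as the only protein-coding gene within 200 kb. The proximal cluster, chr3:30638901-30639010, 9.08 kb from the TSS, ranked 30 of 138 in the MCF10A-named D4 list and 146 of 651 in the MCFDCIS-named parental list. The percentiles were 79.0 and 77.7, above the median of both lists.

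The distal TGFBR2 cluster, chr3:30534451-30534560, lay 114 kb upstream and was in both parental lists and in 0 D4 lists. It ranked 44 of 651 in the MCFDCIS-named and 459 of 490 in the MCF10A-named parental list, at percentiles of 93.4 and 6.53. The MCFDCIS-named minus MCF10A-named difference was 86.9 percentile points. Of the 307 clusters in both parental lists 5, this one included, had a difference at least as large in size, with a median size of 20.3. For the TGFB1 and SPARC clusters in both parental lists the difference was 0.755 and 46.2 points, and 297 and 60 of the 307 reached it. The ranks were among the values used to select the genes, so these counts are a description. Ranks in lists of different length do not show a change in binding. In the MCF10A-named pair the D4 list therefore held the proximal cluster and not the distal one, and the parental list the distal one and not the proximal one.

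**Figure D2:**
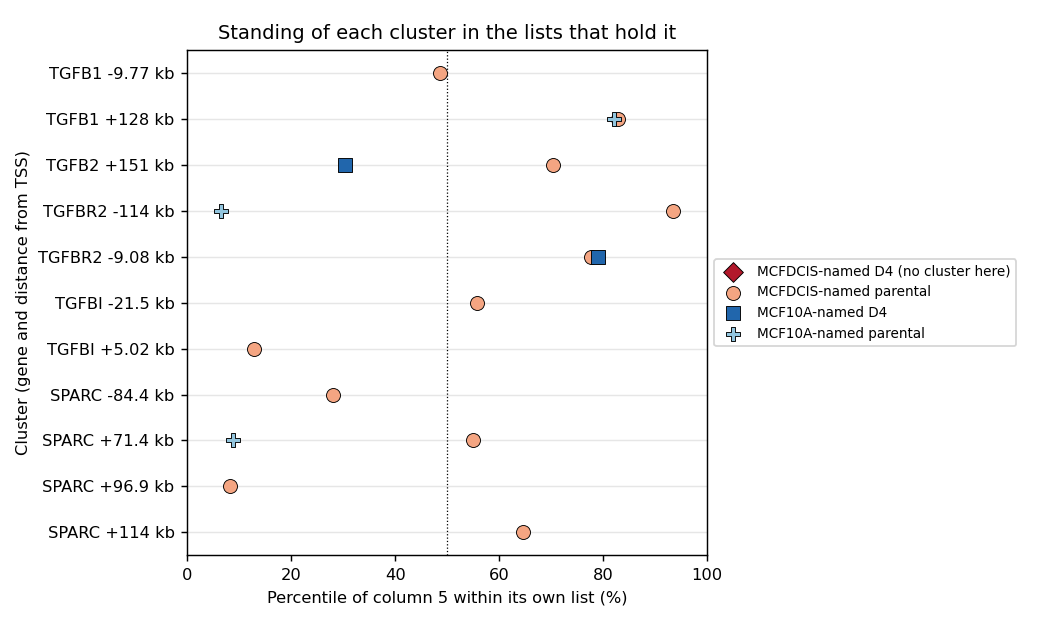
Percentile of the authors' score of each of the 11 clusters (rows) within each list that holds it, with 1 marker shape and colour per list and a dotted line at the median. The proximal TGFBR2 cluster stands at 79.0 in the MCF10A-named D4 list and 77.7 in the MCFDCIS-named parental list, and the distal one at 93.4 and 6.53 in the MCFDCIS-named and MCF10A-named parental lists.

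TGFBI, on chromosome 5, encodes a secreted matrix protein first found as a TGF-beta-induced gene product. Its 2 clusters were both MCFDCIS-named parental ones, and each of the other 3 lists held 0. One, chr5:135369701-135369710, lay in intron 2 of TGFBI, 5.02 kb from the TSS, and was the nearest to the TSS of its own gene of all 11. It ranked 569 of 651, at a percentile of 12.7. The other, chr5:135343051-135343160, was intergenic and 21.5 kb upstream, at rank 289 of 651. Both also lay within 200 kb of SMAD5, which encodes a SMAD of the BMP branch, at 98.8 and 125 kb upstream of its TSS. Of protein-coding genes, 2.74% had a cluster within 200 kb in that parental list and in no other.

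SPARC, also on chromosome 5, encodes a collagen-binding matrix glycoprotein. It had 0 clusters in both D4 lists and 4 and 1 in the MCFDCIS-named and MCF10A-named parental lists. The cluster in both parental lists, chr5:150995051-150995110, lay 71.4 kb downstream of the TSS and 45.5 kb past the end of the gene. It ranked 294 of 651 and 448 of 490 in the MCFDCIS-named and MCF10A-named lists, at percentiles of 55.0 and 8.78. It was intergenic and nearer to the TSS of FAT2, a protocadherin gene, at 24.2 kb.

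The other 3 SPARC clusters were in the MCFDCIS-named parental list alone. Those at chr5:150969601-150969610 and chr5:150952351-150952410, 96.9 and 114 kb downstream, were in intron 1 of FAT2 at ranks 599 and 231 of 651. The last, chr5:151150851-151150860, was 84.4 kb upstream at rank 470, and 0.655 kb upstream of the TSS of G3BP1, which encodes a stress granule protein. Another gene's TSS was nearer than that of SPARC for 4 of 4 clusters.

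Across the 5 genes, the member was the nearest protein-coding gene of 5 of the 11 clusters, those of TGFB2, TGFBR2 and TGFBI, and another gene was nearest for 6, those of TGFB1 and SPARC. None lay within 1 kb of a member's TSS and 3 lay within 10 kb. The clusters near B9D2 and G3BP1 were however within 1 kb of the TSS of those genes. In the MCFDCIS-named parental list 7.68% of clusters lay within 1 kb of the nearest protein-coding TSS. There were 6 intergenic clusters and 5 inside a gene, of which 1 was inside a member. The intergenic share over all clusters was not computed. Of the 11, 5 had the smallest width of 10 bp, and in the MCFDCIS-named parental list as a whole 28.9% did. In that list 7 of the 11 stood above the median score, and in the MCF10A-named parental list 1 of 3 did. The central 100 bp of each of the 11 had no other match in the genome at 95% identity, whereas 25 of all 897 clusters had one.

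The choice of window bears on these counts. The farthest cluster within the window was the TGFB2 one at 151 kb, and the nearest outside the window was the one at 361 kb from the same gene. Within 25 kb, 0 and 3 of the 5 genes had a cluster in the MCFDCIS-named D4 and parental lists and 1 and 0 in the MCF10A-named D4 and parental lists. Over all protein-coding genes the shares at 25 kb were 0.505% and 1.84%, and 0.323% and 1.12%, in the same order. The single D4 case was TGFBR2. Within 1000 kb the counts were 2 and 5 in the MCFDCIS-named and 2 and 5 in the MCF10A-named D4 and parental lists, where 9.93% and 32.0%, and 8.4% and 26.8%, of all protein-coding genes had a cluster. The 2 MCFDCIS-named D4 clusters at that range were 720 kb from TGFB1 and 888 kb from TGFBI.

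**Figure D3:**
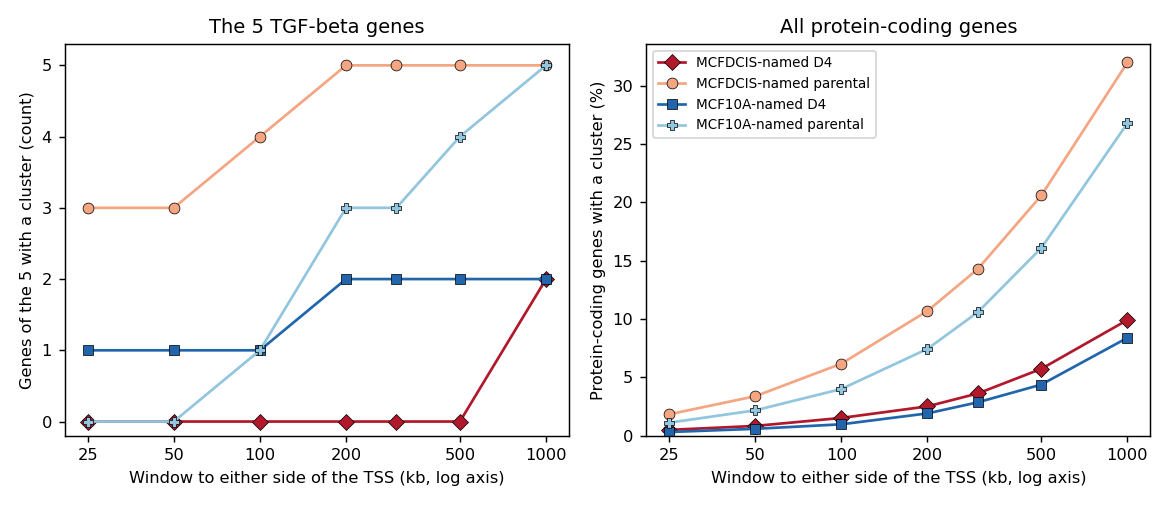
Number of the 5 genes with a cluster (left) and percentage of 18604 protein-coding genes with a cluster (right) by window to either side of the TSS in kb on a log axis, 1 line per list. At 200 kb the 5 genes count 0 and 5 in the MCFDCIS-named and 2 and 3 in the MCF10A-named D4 and parental lists, beside 2.52% and 10.7%, and 1.92% and 7.45%, of all genes. At 1000 kb the shares of all genes are 9.93% and 32.0%, and 8.4% and 26.8%.

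Other genes of the pathway were taken from a list of 98 by role, of which 89 lay on the 20 chromosomes that held clusters. Without the 5 members this left 84 genes. Of these, 0 had a cluster within 200 kb in the MCFDCIS-named D4 list and 14 (16.7%) in the parental list, against 2.52% and 10.7% of all protein-coding genes. In the MCF10A-named lists 2 (2.38%) had a D4 cluster and 10 (11.9%) a parental one, against 1.92% and 7.45%. One of the 14, SMAD5, was counted only through the 2 TGFBI clusters. No test was made of the list.

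Among ligands, receptors and SMADs, the members and SMAD5 were the only genes with a cluster in any list. These were 2 of 12 ligands, 1 of 13 receptors and 1 of 7 genes labelled SMADs. Of all protein-coding genes, 11.6% had a cluster in any list. The group labelled SMADs includes ZFYVE9, which is not a SMAD gene, and SMAD6 and SMAD7 were grouped with the inhibitors. In the group labelled inhibitors 2 of 15 had one, in both parental lists: GREM1, a BMP antagonist gene, at 132 kb, and LTBP3 at 137 kb. FRMD8 was nearer than LTBP3 to the cluster at 137 kb. LTBP3 encodes a latent TGF-beta binding protein rather than an antagonist, and the role groups split its protein family. Of 7 further genes, for activators of the latent ligand and for LTBP2 and LTBP4, which belong to the same protein family as LTBP3, 3 had a parental cluster. ITGB6, whose integrin releases latent TGF-beta, had a cluster 28.5 kb upstream in both parental lists, at rank 24 of 651 in the MCFDCIS-named list. LTBP2 at 40.1 kb and LTBP4 at 115 and 136 kb had theirs in the MCFDCIS-named parental list alone. COQ8B and BLVRB were nearer than LTBP4 to the clusters at 115 and 136 kb.

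Target genes held most of the remainder. Of 35, 0 and 10 had a cluster in the MCFDCIS-named D4 and parental lists and 2 and 8 in the MCF10A-named D4 and parental lists. Over all protein-coding genes the shares were 2.52% and 10.7%, and 1.92% and 7.45%, in the same order. The counts include TGFBI and SPARC, which were selected on their clusters. ANGPTL4, a lipase inhibitor gene, had one 8.28 kb upstream and BHLHE40, a transcriptional repressor gene, one 7.58 kb downstream, each in both parental lists. PTHLH, the parathyroid hormone-like hormone gene, had 1 at 27.0 kb in both parental lists. COL1A1, a fibrillar collagen gene, had 1 at 173 kb in both, where ITGA3 was nearer. IL11, a cytokine gene, had 2 in the MCFDCIS-named parental list, at 15.6 and 154 kb, where RPL28 and PTPRH were nearer.

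The 2 targets with an MCF10A-named D4 cluster were LOX, the lysyl oxidase gene for collagen cross-linking, at 103 kb and TPM1, a tropomyosin gene, at 73.1 kb. At LOX the D4 cluster, chr5:121517201-121517210, ranked 31 of 138. At TPM1 the D4 cluster, chr15:63261851-63261860, ranked 101 of 138. Neither overlapped a parental cluster near the same gene. The LOX D4 cluster was however close to an MCFDCIS-named parental cluster, chr5:121518501-121519360, which lay 105 kb from the LOX TSS. Another gene's TSS was nearer than that of LOX to both. A further LOX cluster, 180 kb upstream, was in both parental lists, at rank 604 of 651 in the MCFDCIS-named and 34 of 490 in the MCF10A-named list. There too another gene's TSS was nearer. TPM1 also had several parental clusters. They lay 141 to 184 kb upstream in the MCFDCIS-named list and 115 to 189 kb upstream in the MCF10A-named list.

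**Figure D4:**
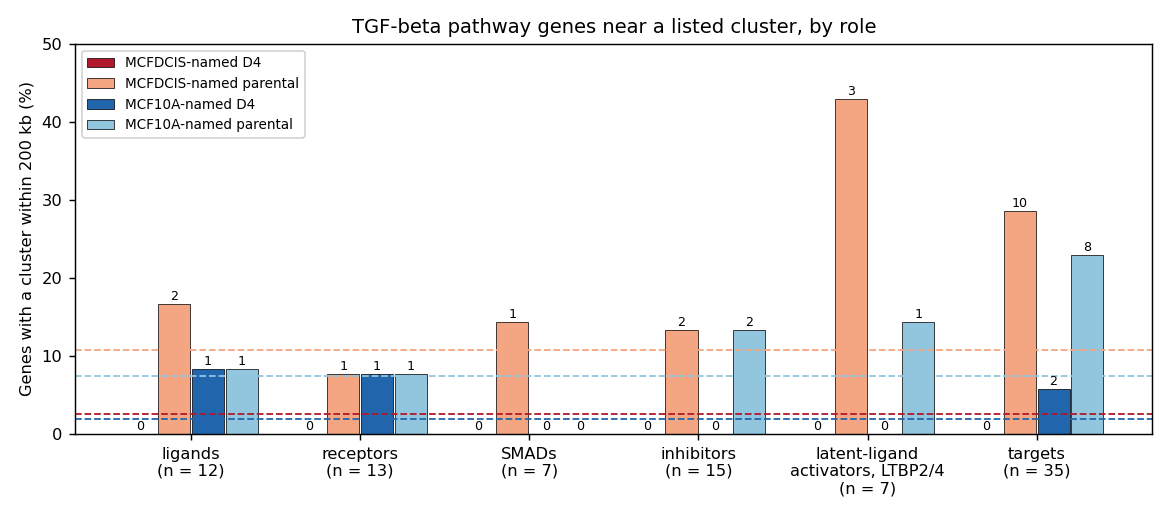
Percentage of TGF-beta pathway genes with a cluster within 200 kb by role (number of genes under each label) and list, with the number of genes on each bar. The dashed lines are the shares over 18604 protein-coding genes in the same colours. Target genes show 10 of 35 in the MCFDCIS-named parental and 8 of 35 in the MCF10A-named parental list, and each role shows 0 in the MCFDCIS-named D4 list.

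Motifs were sought in the central 500 bp on both strands, as AP-1 (TGANTCA), TEAD (GGAATG), GRE (GNACA and TGTNC with 3 bases between), RUNX (TGTGGT), 3 SMAD forms (palindrome GTCTAGAC, GC-rich GGCGCC, SMAD box CAGACA) and ZEB (CACCTG). AP-1 was matched in 4 of the 11 clusters and in 33.6% of all 897, and TEAD in 5 of 11 and 35.1%. RUNX was matched in 3 of 11 and 35.6%, the SMAD box in 6 of 11 and 37.3%, and ZEB in 2 of 11 and 36.5%. The GC-rich SMAD form was matched in 2 of 11 and 7.02%, and the palindrome in 0 of 11 and 0.223%. With 11 clusters these shares are a description, and a match is not a bound site.

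The clusters differed in which motifs they held. The GRE was matched in 1 of the 11, the proximal TGFBR2 cluster, and in 7.02% of all 897. Its match, GCACAGAGTGTTC, was centred -79 bp from the cluster's centre. A TEAD match lay 10 bp from the centre of the same cluster. Of the 138 MCF10A-named D4 clusters 3 (2.17%) held a GRE match, against 49 of 490 (10.0%) MCF10A-named parental clusters. Under the MCFDCIS name the shares were closer, at 8 of 99 (8.08%) D4 and 58 of 651 (8.91%) parental clusters. The distal TGFBR2 cluster held 3 TEAD matches and 0 AP-1 matches, with 2 of the TEAD matches inside the cluster. The TGFB1 cluster in AXL held TGACTCA at -5 bp from its centre, overlapping the 10 bp cluster, and a TEAD match at 12 bp.

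The TGFB2 cluster held 2 AP-1 matches, at -128 and 191 bp. The shared SPARC cluster held 2 AP-1 matches, at 115 and 199 bp, the second overlapping a TEAD match. The intergenic TGFBI cluster and the SPARC cluster near G3BP1 held 0 matches to any of the motifs. GC content of the central 500 bp ran between 35.8% in the proximal TGFBR2 cluster and 72.8% in the TGFB1 cluster in AXL, with a median of 48.8% over the 11, against 46.2% over all 897.

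**Figure D5:**
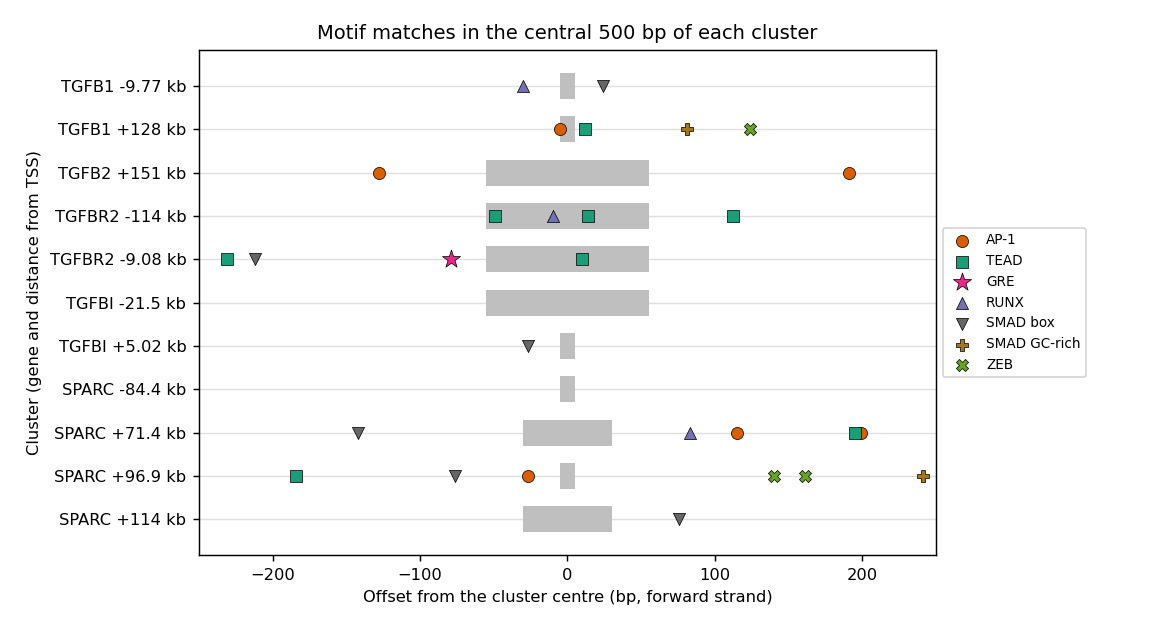
Motif matches in the central 500 bp of the 11 clusters (rows), by offset from the cluster centre in bp on the forward strand, with the grey bar showing the listed cluster. The GRE match at -79 bp of the proximal TGFBR2 cluster is the only one among the 11, and the rows of the intergenic TGFBI cluster and the SPARC cluster at 84.4 kb are empty.

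Likeness between genes was taken as the same presence in the 4 lists and then the smallest mean difference in the percentile of the best-scored cluster. The genes on other chromosomes most like TGFB1 were the keratin genes KRT16 and KRT17, which differed by 1.38 points over 2 lists, among 746 genes on other chromosomes with that presence. TGFB2 was most like NAPA and KPTN (5.48 points over 2 lists, among 69 such genes) and TGFBR2 most like IGFL4 and PGLYRP1 (12.7 points over 3 lists, among 102 such genes). TGFBI was most like MB21D2 and FGF12 (2.3 points in 1 list, among 445 such genes), and SPARC most like NAP1L5 and HERC3 (7.08 points over 2 lists, among 805 such genes). The genes of each pair lay on the same chromosome and gave equal differences, so they may share a cluster and are not separate cases. Presence and rank were also among the values used to select the members, so the likeness is a description.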

How the data were processed

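ChIP-seq for AIB1 was done in 4 groups of 3 ChIP samples and 1 input. The authors deposited 1 list of regions per group, normalized to cell lysate input per the series' design text. The build was hg19 (GRCh37), per the submitters' processing notes. The aligner, the caller, the threshold and how replicates were combined are not named in the sources used here. The deposited score in column 5 has no stated definition. It served only to rank clusters within a list.

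Coordinates were matched to the GRCh37 sequence and GENCODE release 44 mapped to that build. The canonical TSS of 19856 protein-coding genes was used, of which 18604 lay on the 20 chromosomes with clusters. No cluster lay on chromosomes 20, 21, 22 or Y, and 9 pathway genes there were left out; whether the lists covered these chromosomes is not known. Distance runs from the TSS to the nearest edge of a cluster. Clusters of different lists that overlap by 1 bp had identical ends. Second matches were sought with minimap2 2.31 (95% identity over 90 bp). The other tools were Python 3.11.15, numpy 2.4.6, pandas 2.3.3, pysam 0.24.0, samtools 1.23.1 and matplotlib 3.10.9.

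The members and lists were chosen with earlier results of these data known. Named genes are the 5 members, pathway genes with a cluster within 200 kb, nearest genes and the most alike genes. The values of 1 pathway gene are not reported here. Counts of distances and motifs were tested on simulated data. No statistical test was made, because 1 list per group was used. The alternatives were other windows, any annotated TSS, clusters above the median score, clusters wider than 10 bp, the nearest gene only, stricter overlaps and a narrower motif search.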

Additional observations from a re-analysis of the deposited data

Results flagged for a closer look

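At 2 clusters D4 and parental status went opposite ways under the line names. The TGFB2 cluster at 151 kb, rank 97 of 138 in the MCF10A-named D4 list, and the proximal TGFBR2 cluster at 9.08 kb, rank 30 of 138, were each in that D4 list and not in its parental list. Under the MCFDCIS name each was in the parental list and not in the D4 list. The difference was not tested, since 1 list per group was used, and the uncertain cell line of the lists touches it. Of all 897 clusters, 34 (3.79%) were in these 2 lists and in neither other list. Of the 138 MCF10A-named D4 clusters, 35 (25.4%) were absent from the parental list of that name and present in the MCFDCIS-named parental list. Of the MCFDCIS-named parental clusters, 9.98% were in the D4 list of that name, so absence from it was usual.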

How the results depend on the processing

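Of the recomputed counts, 43 stayed within 1.5 times of the value given and 16 did not. The 43 include counts of 0 that a narrower setting could not change. The MCFDCIS-named D4 count of the 5 genes was 0 under each of its 6 alternatives. Only the 500 kb window and any annotated TSS could have raised it, since the other alternatives narrow an empty set. With a 100 kb window, where 0.984% and 4.01% of all protein-coding genes had an MCF10A-named D4 and parental cluster, 1 of the 5 genes had a cluster in the MCF10A-named D4 list (TGFBR2) and 1 in the parental list (SPARC). With clusters above the median score these counts were 1 (TGFBR2) and 1 (TGFB1). Counting only the nearest gene gave 3 in the MCFDCIS-named and 1 in the MCF10A-named parental list (TGFBR2). Of the 89 pathway genes, members included, 0 and 19 had a cluster in the MCFDCIS-named D4 and parental lists and 4 and 13 in the MCF10A-named ones. A 100 kb window gave 12 in the MCFDCIS-named parental list (6.18% of all genes), and 2 and 6 in the MCF10A-named D4 and parental lists. A 500 kb window gave 6 in the MCFDCIS-named D4 list (5.74% of all genes) and 20 in the MCF10A-named parental list (16.1%). The nearest gene only gave 11 and 8 in the MCFDCIS-named and MCF10A-named parental lists. In the MCF10A-named D4 list, clusters above the median score gave 2 and clusters wider than 10 bp gave 2. The share over all protein-coding genes was not computed for the nearest-gene, median-score and width settings. Counts under those settings are therefore a description without a background. In the central 200 bp AP-1 was matched in 2 of the 11 clusters (20.6% of all 897), TEAD in 3 (20.3%), ZEB in 0 (17.5%), the GC-rich SMAD form in 1 (3.34%) and the SMAD box in 4 (18.5%). These changes follow from the smaller or larger sets counted. Neither of the 2 MCF10A-named D4 clusters near members overlapped a cluster of the parental list by 1 bp, so the stricter overlap rules could not change this count. No paired analysis was possible because the lists used here are 1 per group, with no replicate values. For the same reason no replicate could be left out. Read depth is unknown, so no limit from depth can be given.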
